A study of Rattus norvegicus with 8 samples.

Results

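The cytosolic ribosomal protein genes encode the proteins of the large and small subunits of the ribosome that translates nuclear mRNA. Members were the genes whose symbol has the form of a cytosolic ribosomal protein (Rpl or Rps with a number and at most a short ending, Rplp0 to Rplp2, or Rpsa), without pseudogene (-ps) and LOC symbols and without the Rps6 kinases. There were 62 members among the 14295 genes listed for stem cells and 71, which included all 62, among the 18236 listed for adipocytes. Of a roster of 79 mammalian ribosomal proteins the tables listed 57 and 62 by symbol, and the rest, among them Rplp2, Rps19, Rpl7, Rpl13a, Rpl36a and Rpl38, were not analysed here.

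The cells came from wild-type Wistar rats kept for 6 months on either control food (C) or high-fat sucrose food (HFS). Stem cells of the inguinal fat (adipose-derived stem cells, ASC), which are labelled as mesenchymal, were released with collagenase. The adipocytes (AD) were made from such cells in culture over 3 days with insulin (10.0 µg/mL), IBMX (0.5 mM) and dexamethasone (5.0 µM), then over 7 days with insulin alone, so both diets were given to the donor animals and not to the cultures. The groups AD_C, AD_HFS, ASC_C and ASC_HFS had 2 RNA-seq libraries each, with 50 bp paired-end reads. No label states if replicate libraries stem from different animals or dishes, so each p measures only the spread between these samples, which may be technical. The molecule is labelled polyA RNA, although the protocol names a kit for rRNA depletion.

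Depth ran from 992618 to 7290961 reads in ASC and from 76083827 to 119555051 in AD, with ASC_HFS replicate 2 the shallowest. The 15 measured adipocyte markers took 0.130% to 0.508% of reads in the ASC libraries and 2.38% to 3.05% in the AD libraries, and all 14 mesenchymal markers had reads in both tables. The AD_HFS pair was far closer than the AD_C pair: the SD of the log2 difference between replicates over all genes was 0.0962 against 0.391. The AD_HFS libraries still differed beyond counting noise (chi-square per degree of freedom 7.196) and were counted as 2.

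The ribosomal proteins of a subunit are needed in equal numbers, and their mRNAs are among the most abundant of growing cells. Many start with a C followed by a run of C and T, the 5' terminal oligopyrimidine (TOP) motif, through which mTORC1 and Larp1 control their translation and stability. A few members have paralogs, such as Rps27l for Rps27 and Rpl22l1 for Rpl22, that replace the canonical protein in some ribosomes or act outside them; Rps27l is known as a p53 target.

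The starts of a few members are shown because canonical genes and paralogs, which are described apart in the results, differ in how often such a run is found there. Each line runs from 10 bases before to 20 bases from the RefSeq start (build GRCr8, strand of the transcript), and capitals mark a run of at least 5 C or T that opens with C within 10 bases of the start.
Rplp0, stalk base, chr12:46718371-46718400, minus strand: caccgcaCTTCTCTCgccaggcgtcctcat
Rplp1, stalk, chr8:71290853-71290882, minus strand: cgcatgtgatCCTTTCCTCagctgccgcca
Rps15, small subunit, chr7:10068096-10068125, minus strand: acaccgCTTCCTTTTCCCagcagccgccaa
Rpl31, large subunit, chr9:49143101-49143130, plus strand: atccctcgcgCCTTTCCTTTCCaacttggg
Rps27, small subunit, chr2:177964587-177964616, minus strand: cgctttcgCTCCTTTCCggcggtgacgacc
Rps27l, paralog of Rps27, chr8:76443648-76443677, plus strand: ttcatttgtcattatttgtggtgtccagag
Rpl22, large subunit, chr5:168117951-168117980, plus strand: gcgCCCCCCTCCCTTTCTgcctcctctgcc
Rpl22l1, paralog of Rpl22, chr2:113683186-113683215, plus strand: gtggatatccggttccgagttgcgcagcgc
Rpl7l1, paralog of Rpl7, chr9:21695708-21695737, plus strand: cagatgcattgtgggaagCCTTTaactcgt

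Such a run was present in 77.6% of 49 entries (48 canonical symbols), in 20% of 5 entries of paralogs, and in 27.8% of all 33469 entries of the table. A C at the first base itself, followed by at least 4 C or T, was present in 40.8%, 0% and 2.63% of them. Rps27 and Rpl22 carry the run and Rps27l and Rpl22l1 do not, and Rpl7l1 has a run of 5 that opens 9 bases into the transcript. All canonical starts shown carry the run, but those of Rps12, Rps16, Rpsa, Rps3, Rpl3 and Rpl11, among others, do not. Only the transcript strand was searched. A match is a description of these letters, not evidence of a TOP start in these cells.

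Of the 62 members in both tables, 59 averaged at least 5 CPM (reads scaled to a common library total, over the 14018 genes both tables list) across the 8 libraries, namely 31 large-subunit genes, 25 small-subunit genes and the paralogs Rpl22l1, Rps27l and Rpl7l1. Rpl30l1, Rpl3l and Rps18l1 had few reads in both tables. The 9 rows that only the AD table lists had few reads too: Rpl22, Rpl30, Rpl35a (in 2 rows), Rpl37, Rpl39l, Rps17l, Rps19l1 and Rps6. Rps6, the small-subunit protein phosphorylated by the S6 kinases, had 5.06 and 1.62 in C and 5.70 and 4.78 in HFS as normalized counts. Rpl22, which binds RNA outside the ribosome as well, had 10.1 and 21.1 in C and 12.2 and 13.2 in HFS. Eef1a1, elongation factor and no member, likewise had 0 to 2.74 CPM in the 8 libraries. Ribosomal protein genes have many near-identical copies among which reads can be split or lost, so low values of members are uncertain as levels. Levels are not compared between genes, since no transcript lengths were used here.

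Members took a smaller share of reads in AD than in ASC, and within each stage a smaller mean share in HFS than in C. The share was 5.78% and 6.50% in ASC_C (6.14% ± 0.507, SD, n = 2), 4.99% and 3.07% in ASC_HFS (4.03% ± 1.36), 2.70% and 2.40% in AD_C (2.55% ± 0.210) and 1.86% and 1.82% in AD_HFS (1.84% ± 0.0236). No AD library reached the lowest ASC library, and in both stages the HFS libraries lay below the C libraries. In bulk RNA, fewer cells of a type and less RNA per cell cannot be told apart. The tables were normalized separately and stage coincides with table, depth and differentiation, so levels across stages are described without a test. Mitochondrially encoded genes took 0.534% to 1.34% of reads in ASC and 5.76% to 6.55% in AD; with them left out of the total the AD_HFS share was 1.96%.

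**Figure D1:**
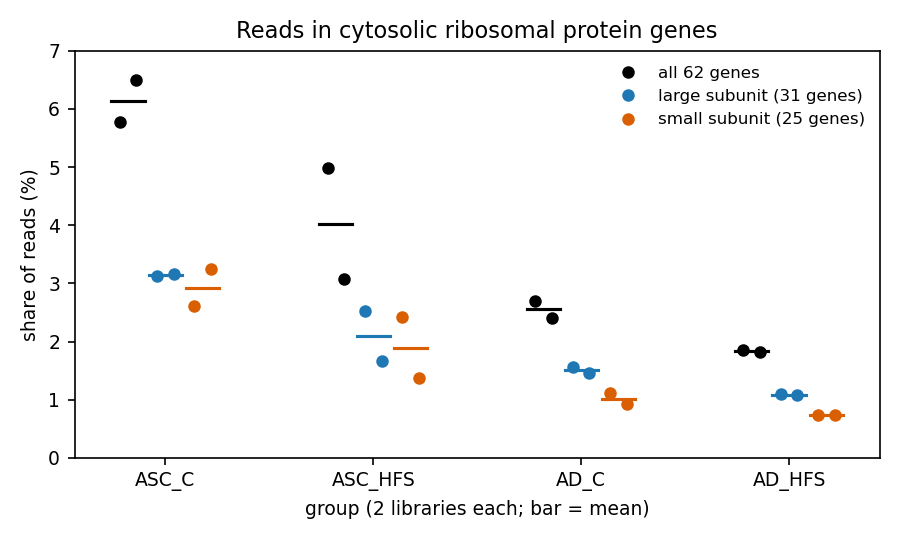
Share of reads (%, vertical axis) in the 62 members, the 31 large-subunit and the 25 small-subunit genes, by group; points are the 2 libraries and bars their mean. The share of all members lies between 3.07% and 6.50% in ASC and between 1.82% and 2.70% in AD.

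Most members were lower in adipocytes than in stem cells. All 4 AD libraries lay below all 4 ASC libraries for 31 of the 59 members with reads and above them for 0, against 19.1% of all genes in both tables that lay below. The median fold of ASC over AD was 2.04 for the members and 1.04 for all genes. Among C libraries alone 51 of 59 did not overlap and were lower in AD, against 38.9% of all genes, and among HFS libraries alone 52, against 32.8%. Without ASC_HFS replicate 2, the lowest ASC library for most members, 50 of 59 were lower in every AD library, against 23.8% of all genes, and the median fold was 2.35.

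Small-subunit genes had a median fold of 2.70 and large-subunit genes of 1.90. The reads of the large-subunit genes over those of the small-subunit genes came to 0.969 to 1.21 in the ASC libraries and 1.41 to 1.59 in the AD libraries, with no overlap. Rps28, a small-subunit protein mutated in Diamond-Blackfan anaemia, had 558, 1448, 1079 and 176 CPM in the ASC libraries and 137, 87.0, 70.7 and 72.1 CPM in the AD libraries, a fold of 8.90 for ASC over AD. Rps29, another small-subunit protein linked to that anaemia, had 559, 1089, 869 and 283 CPM in the ASC libraries and 129.7, 72.1, 88.8 and 90.3 CPM in the AD libraries, a fold of 7.35. Both were higher in every ASC library than in any AD library, with ASC_HFS replicate 2 the lowest of the ASC libraries. Rpl9, of the large subunit, had 922, 1639, 1008 and 341 CPM in the ASC libraries and 226, 150.4, 147 and 153 CPM in the AD libraries (fold 5.77). Rps20, of the small subunit, had 1084, 1902, 1299 and 400.2 CPM in the ASC libraries and 262, 178, 219 and 198 CPM in the AD libraries (fold 5.46). The groups did not overlap for either gene. Rpl30l1 had the largest fold by value, but at most 2.57 CPM in any library.

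At the other end, Rpl35, a large-subunit protein near the exit tunnel, had 821, 289.8, 419 and 414 CPM in the ASC libraries and 584, 706, 453 and 408 CPM in the AD libraries, a fold of 0.904. Rps25, a small-subunit protein used by some viral internal ribosome entry sites, had 311, 90.3, 134 and 171 CPM in the ASC libraries and 207, 229, 149 and 148 CPM in the AD libraries (fold 0.964). Rpl31 had a fold of 1.04 and Rpl10, which takes part in subunit joining, of 1.18; the stages overlapped for all 4 genes. Rps18l1 also overlapped, with at most 3.02 CPM.

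**Figure D2:**
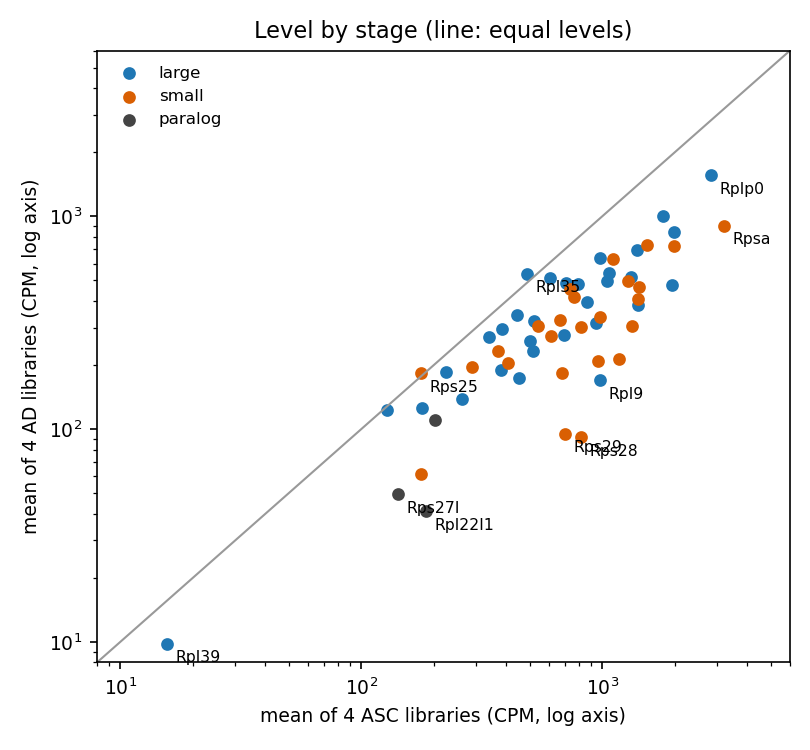
Mean CPM of the 4 AD libraries (vertical, log axis) against that of the 4 ASC libraries (horizontal, log axis) for the 59 members with reads, coloured by subunit; the line marks equal levels. Most points lie below the line, Rps28 and Rps29 farthest among the abundant genes, and Rpl35 lies just above it.

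By role, Rplp0, the base of the stalk that recruits elongation factors, had 3786, 2915, 2674 and 1961 CPM in the ASC libraries and 1957, 1592, 1331 and 1344 CPM in the AD libraries (fold 1.82). Rpsa, a small-subunit protein also known as the laminin receptor, had 3268, 4893, 2977 and 1667 CPM in the ASC libraries and 1143, 889, 795 and 790.4 CPM in the AD libraries (fold 3.54). For both genes every AD library lay below every ASC library. Folds of ASC over AD were 3.67 for the stalk protein Rplp1, 2.75 for Rps3 at the mRNA entry site, 3.71 for the X-linked Rps4x and 2.24 for Rps27a, which is made as a fusion with ubiquitin. Rpl5 and Rpl11, which with 5S rRNA bind Mdm2, had folds of 1.98 and 1.64. Rpl3, near the peptidyl transferase centre, had 1.77, Rpl10a 1.90, Rpl39 of the exit tunnel 1.59 and Rps27 1.48. Among the paralogs the folds were 4.51 for Rpl22l1, 2.86 for Rps27l and 1.84 for Rpl7l1.

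In ASC, HFS against C, both members that passed the test were paralogs, and both fell. Tests were limma-trend on log2(deposited value + 1) with Benjamini-Hochberg adjustment over all genes of the table and a threshold of 0.05. Rpl22l1 had 635 and 1222 in C and 379.8 and 221 in HFS as normalized counts, a ratio of 0.324 (log2 difference -1.41, SE 0.330, adjusted p = 0.0101, limma-trend). Rps27l had 538 and 837 in C and 355 and 141 in HFS, a ratio of 0.361 (log2 difference -1.33, SE 0.337, adjusted p = 0.0152, limma-trend). In both genes each HFS library was below each C library. These 2 of 62 members stand against 19.1% of all genes called in that table in either direction.

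None of the 56 canonical genes with reads passed limma-trend (lowest adjusted p = 0.121). At an unadjusted p under 0.05 was 1 of them, as were 4756 of all 14295 genes. Limma-voom on the recovered reads called 10 of all 62 members, all lower, against 23.0% of all genes. Rpl22l1 and Rps27l were among these 10. By limma-trend the differences of the canonical genes were below 0 in 52 of 56. The median over all 62 members was -0.41 on the log2 scale, against -0.04 over all genes tested. With CPM in place of the authors' scaling the median of all genes moved to -0.24 and that of the members to -0.62, so the members lay at -0.37 from all genes on the first scale and at -0.38 on the second. Groups did not overlap, with HFS lower, for 17 of 62 members, against 32.5% of all genes, and the members' share is not above that background.

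The ASC differences rested largely on one library. ASC_HFS replicate 2, at 992618 reads, was the lowest of the 4 libraries for 49 of 59 members and the highest for 0. Without it the members' median was -0.09 and 37 of 62 differences were below 0, and without ASC_HFS replicate 1 the median was -0.74. With any one ASC library left out no gene passed limma-trend, so the loss of both calls was not particular to the paralogs. The limma-trend differences of Rpl22l1 then ran from -1.85 to -0.97 and those of Rps27l from -1.85 to -0.81. By limma-voom they ran from -2.13 to -1.24 for Rpl22l1 and from -2.39 to -1.10 for Rps27l. Both genes thus stayed below 0 in every such fit. By limma-voom, 1 member was called without ASC_HFS replicate 2 and 9 without ASC_HFS replicate 1, against 10.9% and 6.69% of all genes. It called 22 without ASC_C replicate 1 and 17 without ASC_C replicate 2, against 23.7% and 27.0% of all genes.

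Rplp1 had 3664 and 8871 in C and 4463 and 1795 in HFS (log2 difference -0.99, SE 0.480, adjusted p = 0.167, limma-trend), and the groups overlapped. Rpl9 had 2853 and 5356 in C and 3676 and 1226 in HFS (adjusted p = 0.217, limma-trend) and overlapped too. Rps16 had 6742 and 6213 in C and 3975 and 3379.7 in HFS, without overlap (adjusted p = 0.121, limma-trend). The highest differences were small: Rpl7l1 had 450.2 and 825 in C and 827 and 667 in HFS, Rpl10 a ratio of 1.03 and Rpl17 of 1.02, all with overlap, and the differences of Rpl10 and Rpl17 were below 0 with quantile normalization, log2 CPM and limma-voom. Rpl30l1 and Rps18l1 had at most 10.9 normalized counts, the floor of 3 reads in ASC_HFS replicate 2. Rpl3l, the muscle paralog of Rpl3, had 4.63 and 4.03 in C and 0 and 0 in HFS, at or under the floor in HFS.

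Other members of known role had ratios of HFS to C of 0.791 (Rplp0), 0.646 (Rpsa), 0.792 (Rps3), 0.700 (Rpl5), 0.843 (Rpl11), 0.645 (Rps27a), 0.824 (Rps27), 0.826 (Rpl3), 0.760 (Rpl10a), 0.974 (Rpl39) and 0.927 (Rps4x) in ASC. None passed limma-trend. Rps27, with 1296 and 824 in C and 1116 and 631 in HFS, overlapped between diets where its paralog Rps27l did not.

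Within the ASC groups, the replicates differed more for members than for all genes on the log2 scale of the deposited values. The SD over members of the log2 difference between replicates was 0.645 in ASC_C and 0.528 in ASC_HFS, against 0.366 and 0.387 over all genes. That scale compresses differences of low genes, so members and all genes are not compared on equal terms. In AD the order was opposite, with 0.297 in AD_C and 0.0806 in AD_HFS for members against 0.391 and 0.0962 for all genes. Rps28 was 2.74 times as high in ASC_C replicate 2 as in replicate 1 and 0.161 times as high in ASC_HFS replicate 2 as in replicate 1. Rps12 had ratios of 2.11 and 0.247 and Rplp1 of 2.42 and 0.402 in the same order. Rps25 had 0.307 and 1.26 and Rpl35 0.373 and 0.975. Of the 59 members, 36 were higher and 23 lower in ASC_C replicate 2 than in replicate 1, and 2 were higher and 57 lower in ASC_HFS replicate 2. No label links replicate numbers across groups, so the direction of a ratio in one group has no known counterpart in the other.

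**Figure D3:**
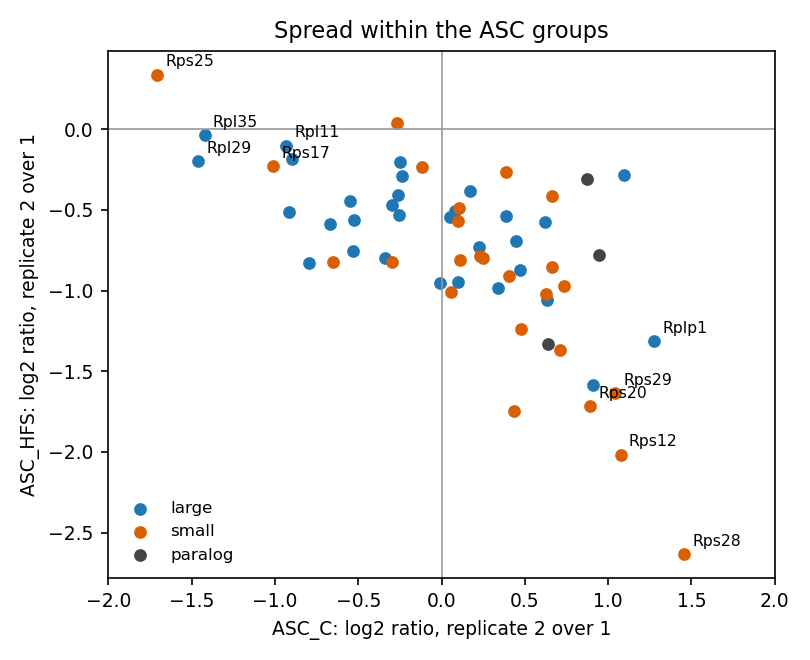
Log2 ratio of replicate 2 over replicate 1 in ASC_HFS (vertical) against that in ASC_C (horizontal) for the 59 members with reads, coloured by subunit. No label links replicate numbers across groups. Rps28 sits at the lower right and Rps25 at the upper left.

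In AD, HFS against C, no member passed limma-trend, while nearly all canonical genes were lower in both HFS libraries. Differences were below 0 in 56 of 56 canonical genes with reads, and both HFS libraries lay below both C libraries in 51 of them, against 23.5% of all genes in that table. The genes were read in the same libraries, here as in ASC and by stage, so such counts are not of independent observations. Of all 71 members limma-trend called 0, against 1.34% of all genes, and limma-voom called 0, against 0.773%. By limma-trend 38 members were at an unadjusted p under 0.05, as were 2540 of 18236 genes. By limma-voom 46 members were, as were 2523 of all genes. The median over all 71 members was -0.42 on the log2 scale, against -0.01 over all genes. The median ratio of normalized counts was 0.721 in large-subunit and 0.718 in small-subunit genes.

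Rpl17, which lines the exit tunnel of the large subunit, had 30357 and 39165 in C and 16973 and 18342 in HFS, a ratio of 0.508 (log2 difference -0.96, SE 0.153, adjusted p = 0.0764, limma-trend). Rps12, of the small subunit, had 23877 and 26512 in C and 15485 and 14987 in HFS, a ratio of 0.605 (log2 difference -0.72, SE 0.101, adjusted p = 0.0605, limma-trend), and this was the lowest adjusted p of the members. Both genes had the HFS pair well below the C pair. Rpl28 had 39787 and 34300.2 in C and 24922 and 22518 in HFS (ratio 0.640). Rpl24, at the bridge between the subunits, had 54003 and 62724 in C and 37745 and 37043 in HFS (ratio 0.641). Rpl26 had 22579 and 21726 in C and 14846 and 13818 in HFS (ratio 0.647). None of the 3 overlapped, and their adjusted p ran from 0.0680 to 0.114 by limma-trend.

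Rps27l was the one member with reads that was higher in both HFS libraries. It had 4609 and 4676 in C and 4933 and 4924 in HFS, so both HFS libraries were above both C libraries, but by a ratio of 1.06 (log2 difference 0.08, SE 0.0869, adjusted p = 0.730, limma-trend). Rps27 had 20775 and 23715 in C and 15749.9 and 14946 in HFS, a ratio of 0.690, without overlap (adjusted p = 0.131, limma-trend). Rpl22l1 had 6209 and 2962 in C and 3113 and 3650.0 in HFS and Rpl7l1 12685 and 9456 in C and 10040.2 and 10372 in HFS, both with overlap. The other canonical genes that overlapped were Rps20, with 25236 and 17119 in C and 21296 and 19203 in HFS, and Rps4x, Rpl9, Rplp1 and Rps29. The difference between paralogs and canonical genes was not tested.

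Rplp0 had 188217 and 152805 in C and 129433 and 130212 in HFS (ratio 0.761), and Rpsa 109917 and 85315 in C and 77271 and 76598 in HFS (ratio 0.788). Rpl5 had 68423 and 55343 in C and 43206 and 41081 in HFS (ratio 0.681), and Rpl11 58239 and 48737 in C and 40388 and 39022 in HFS (ratio 0.742). Both HFS libraries were below both C libraries in these 4 genes. Ratios were 0.666 for Rps3, 0.666 for Rpl3, 0.713 for Rpl10a, 0.802 for Rps27a and 0.904 for Rpl39, also without overlap, and 0.830 for Rplp1 and 0.753 for Rps4x with overlap. Rpl3l had 15.2 and 23.5 in C and 22.0 and 35.9 in HFS as normalized counts, Rpl39l 48.1 and 18.7 in C and 12.2 and 13.2 in HFS.

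Which AD libraries entered decided the calls. Without AD_C replicate 1 limma-trend called 54 members, 51 of them lower, and without AD_C replicate 2 it called 61, all lower. The spread then came from the close AD_HFS pair alone, and the lone C library was assumed to vary like it; 7106 and 9830 of all genes, or 39.0% and 53.9%, were called in these fits. Without either AD_HFS library 0 members were called. Of the members with reads that were below 0 in the full fit, Rpl22l1, Rps20, Rplp1, Rpl7l1, Rps4x, Rps29 and Rpl9 were above 0 without AD_C replicate 1. Both HFS libraries stayed below the remaining C library in 51 and 58 of the 59 members with reads.

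**Figure D4:**
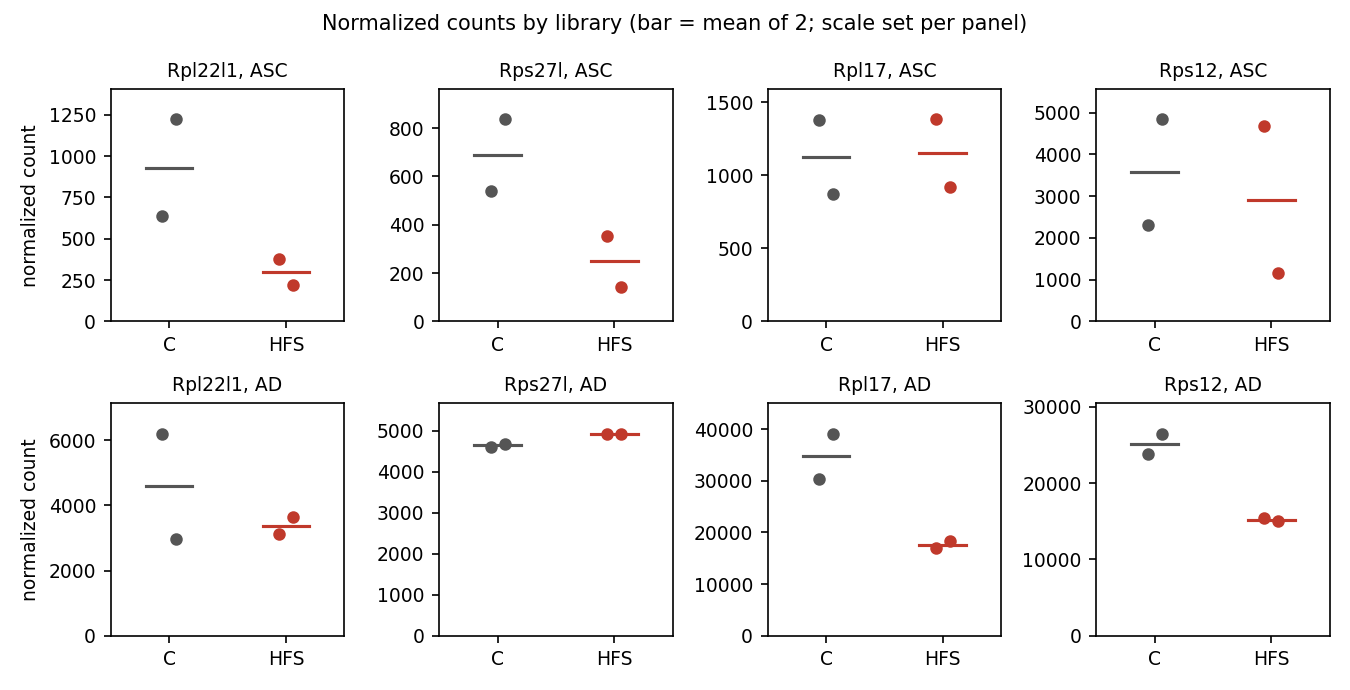
Normalized counts (vertical, from 0, scaled per panel) of Rpl22l1, Rps27l, Rpl17 and Rps12 in C and HFS, ASC above and AD below; points are the 2 libraries and bars their mean. The 2 paralogs are lower in HFS in ASC, and Rpl17 and Rps12 are lower in HFS in AD.

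The diet difference itself was compared between stages in one limma-trend fit of the 8 libraries, as the AD difference minus the ASC difference. By limma-trend none of 62 members passed, against 12.5% of the 14018 genes. At an unadjusted p under 0.05 were 3 of the members and 4239 of all genes, by the same test. Limma-voom and a limma-trend fit on log2 CPM called 1 member each, Rps27l, against 10.7% and 15.3% of all genes. Rps27l came closest, at 1.41 (SE 0.436, adjusted p = 0.0615, limma-trend), with -1.33 in ASC and 0.08 in AD. Rpl22l1 followed at 1.08, Rplp1 at 0.75, Rps20 at 0.74 and the rarely read Rpl3l at 0.62. At the low end were Rpl17 at -0.998 (adjusted p = 0.112, limma-trend), Rps25 at -0.54, Rpl35 at -0.52, Rpl13 at -0.45 and Rps23 at -0.38. The call of Rps27l depended on the fit: its adjusted p was 0.0479 by limma-voom, 0.0496 by limma-trend on log2 CPM and 0.0163 by limma-trend without ASC_HFS replicate 1. Its adjusted p with any other library left out ran from 0.0921 to 0.165 by limma-trend. Without ASC_C replicate 1 limma-trend called Rps25 alone among the members, at -1.30 (adjusted p = 0.0415). Rpl22l1 was not called by limma-trend, limma-voom or the log2 CPM fit of all 8 libraries.

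**Figure D5:**
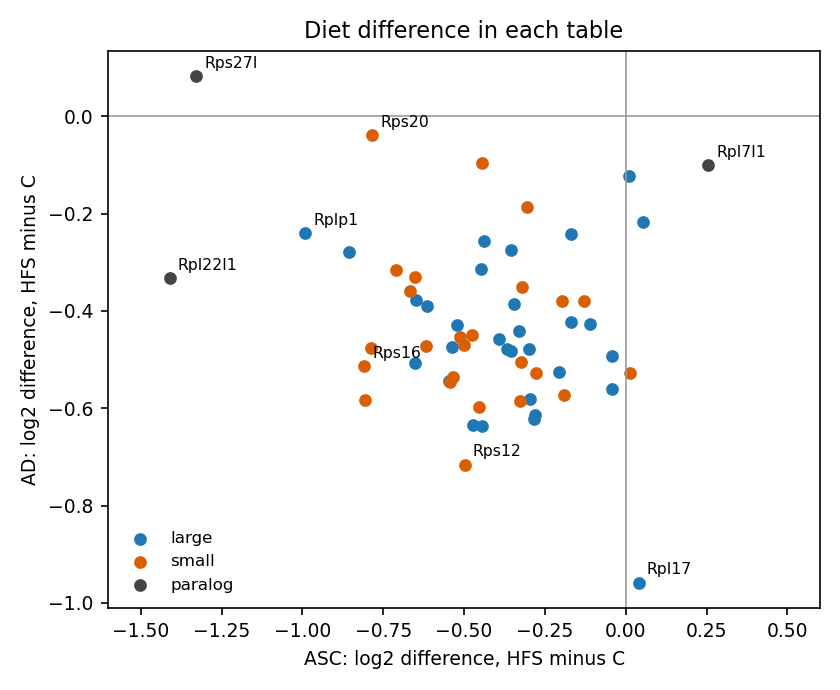
Log2 difference HFS minus C in AD (vertical) against that in ASC (horizontal) for the 59 members with reads, coloured by subunit. All canonical genes lie below 0 on the AD axis, Rpl17 lowest, and Rpl22l1 and Rps27l lie farthest left.

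Other genes of ribosome production were read from lists that hold no member. In ASC limma-trend called 5 of 54 ribosome biogenesis genes, all higher in HFS, with a list median of 0.21, against 9.41% of all genes called higher and 9.70% called lower. That share of the list is near the background. Ddx21, a nucleolar helicase, had normalized counts of 139.9 and 163 in C and 347 and 497 in HFS (adjusted p = 0.00736, limma-trend) and Utp15, of the small-subunit processome, 90.8 and 109 in C and 236 and 315 in HFS (adjusted p = 0.00866, limma-trend). Nol6 and Nolc1, both nucleolar, also rose. Of 22 genes of mTORC1, Larp1 and Myc 3 rose, namely Myc, with 245 and 201 in C and 450.2 and 638 in HFS (adjusted p = 0.0133, limma-trend), the mTOR inhibitor Deptor and Rragc, against the same 9.41% of all genes. Of 33 initiation factors 3 rose, again near the background: Eif4e, Eif5 and Eif4g2. Of 18 RNA polymerase I genes Polr1b rose and Polr2e fell. Without any one ASC library none of these passed, as no gene did.

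In AD none of these lists had a called gene. Both HFS libraries lay below both C libraries for 36 of 54 biogenesis genes (list median -0.24), against 23.5% of all genes, and for 9 of 18 RNA polymerase I genes (-0.20), 10 of 33 initiation factors (-0.09) and 4 of 22 genes of mTORC1, Larp1 and Myc (0.02). For 15 other translation genes with TOP starts, 0 were called in either table, and 10 of 15 were lower without overlap in AD (list median -0.22). By stage, the list medians of AD minus ASC on the log2 CPM scale were -1.08 for those TOP genes, -0.87 for biogenesis, -0.73 for RNA polymerase I, -0.45 for initiation factors and 0.43 for mTORC1, Larp1 and Myc, against -0.06 for all genes.

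Genes of several cell type marker lists were called by diet. Macrophage markers (19 of 20 listed) took 0.192% to 0.222% of reads in ASC_C and 0.789% to 0.856% in ASC_HFS, and 0.0472% to 0.0898% in AD_C and 0.421% to 0.422% in AD_HFS; limma-trend called 13 of 19 higher in ASC and 12 of 19 in AD, against 9.41% and 1.31% of all genes. Endothelial markers (10 of 12 listed) took 0.0321% to 0.0673% in ASC_C and 0.134% to 0.136% in ASC_HFS, with 8 of 10 called higher. In AD 1 of 10 was called higher, at 0.0325% to 0.0444% in C and 0.0411% to 0.0421% in HFS. Of 7 epithelial markers 6 were called higher in ASC, at 0.00422% to 0.00664% in C and 0.0255% to 0.0265% in HFS, and in AD 0 of 7 were called. Adipocyte markers (15 of 16 listed) took 0.130% to 0.490% in ASC_C and 0.372% to 0.508% in ASC_HFS, with 6 of 15 called higher and 0 lower. In AD they took 2.38% to 3.05% in C and 2.93% to 2.99% in HFS, with 0 called. Mesenchymal markers, 14 in all, took 2.81% to 3.11% in ASC_C and 4.69% to 5.01% in ASC_HFS. Of these 4 were called higher and 4 lower in ASC, against 9.41% and 9.70% of all genes, and in AD 0 were called. Proliferation genes fell in ASC, 11 of 15, against 9.70% of all genes called lower. Cdk1, for example, had 179 and 115 in C and 13.1 and 0 in HFS. In AD 0 of 15 were called while all 15 were higher without overlap, against 24.2% of all genes. No listed marker was at 0 in both libraries of a group. The part of these in the members' differences was not tested.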

How the data were processed

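The submitters' processing notes name FastQC, STAR, featureCounts and DESeq2 and, as builds, rn7 and mRatBN7.2, but neither versions nor settings; counting by strand is not given in the sources used here. The authors deposited 1 table per stage, each normalized on its own, and the deposited values are a signal on the antilog scale, to base 2, of variance-stabilized counts. Inverting that transformation gave whole reads for 100% of values (tolerance 1e-06 reads). These gave depth, normalized counts (divided by the authors' size factors), CPM and a floor of 3 reads per library.

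HFS was set against C within each table by a two-sided limma-trend test of log2(value + 1), run in R 4.3.3 with limma 3.58.1, for genes whose values averaged 10 or more. No gene fell below that filter. Log2 differences on this scale are compressed for low genes. P-values were adjusted over all genes. The fits were tried on reads simulated with the same dispersion in all genes and groups. That setting lacks the unequal spread of these replicate pairs, so it does not show how the fits behave on them. Figures used Python 3.11.15 and matplotlib 3.10.9.

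The members and lists were chosen with earlier results of these data known. Named members were a fixed set by role, the 5 highest and 5 lowest per comparison and stage, and every called one. A rule on levels per coding length was not applied, as no lengths were used here. RefSeq starts (GRCr8) were matched by symbol for 53 members. No column was left out.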

Additional observations from a re-analysis of the deposited data

How the results depend on the processing

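In ASC limma-voom on the recovered reads called 10 members where limma-trend called 2, and averaging the ASC_HFS pair as 1 library (chosen after seeing the data) left 0. With 1 library left out the count was 0 to 0 in ASC and 0 to 61 in AD; by limma-voom it was 1 to 22 and 0 to 61, and in the interaction, where log2 CPM and limma-voom each called 1 (Rps27l), it was 0 to 1 by limma-trend and 0 to 2 by limma-voom. The AD median was -0.49 by limma-voom and -0.47 to -0.31 with 1 library left out, and the AD_HFS share of reads was 1.96% without mitochondrially encoded genes. The cause of these changes was not tested. Over all ASC genes limma-trend called 1345 higher and 1386 lower, and 1044 and 1882 on log2 CPM.

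The replicate block called 2 members in AD, Rpl17 (adjusted p = 0.00988, limma-trend) and Rps12 (0.0358), changed no other call of a member, and called 661 in place of 244 AD genes. The labels link no replicate numbers. Deviations of same-numbered libraries correlated at -0.12 in ASC and 0.0014 in AD, over genes. With so few libraries this cannot show if same-numbered libraries share an animal or dish.

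Some uncalled ASC differences near 0 changed sign with the scaling: -0.095 for Rpl10 and -0.15 for Rpl17 with quantile normalization, -0.13 for Rpl10, -0.15 for Rpl17 and -0.13 for Rpl39 on log2 CPM, -0.00023 for Rpl17, -0.029 for Rpl39 and -0.0011 for Rps18l1 with a common upper quartile, and -0.15 for Rpl10, -0.16 for Rpl17, -0.16 for Rpl39 and -1.17 for Rps18l1 by limma-voom. With 1 library left out, signs were followed only for part of the members. These were the called ones, the 5 highest and 5 lowest differences and, within each stage, the role set with reads. Other members changed sign too: of all 62, 55 ASC differences were below 0 in the full fit and 37 without ASC_HFS replicate 2. Among those followed, signs changed in ASC for Rpl10 (-0.21 to 0.32), Rpl10a (-0.75 to 0.0092), Rpl11 (-0.63 to 0.29), Rpl17 (-0.27 to 0.35), Rpl3 (-0.64 to 0.046), Rpl30l1 (-0.16 to 0.56), Rpl39 (-0.27 to 0.29), Rpl7l1 (-0.14 to 0.65), Rps18l1 (-0.22 to 0.30), Rps27 (-0.66 to 0.10) and Rps4x (-1.16 to 0.52). In AD Rps29 and Rpl9, outside that set, were above 0 without AD_C replicate 1. Among those followed, signs changed in AD for Rpl22 (-0.14 to 0.052), Rpl22l1 (-0.84 to 0.18), Rpl7l1 (-0.31 to 0.11), Rplp1 (-0.52 to 0.043), Rps20 (-0.32 to 0.24) and Rps4x (-0.75 to 0.049). In the interaction they changed for Rpl35 (-1.20 to 0.16), Rps20 (-0.090 to 1.58) and Rps25 (-1.30 to 0.21). Pseudocounts of 0.5 and 5, no filter and a mean of at least 50 changed no direction or call of a named member. At 992618 reads, ASC_HFS replicate 2 limits what ASC can show for low genes.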
